A study of Mus musculus with 2 samples.

Results

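Toll-like receptors are membrane proteins that recognise molecules of microbes and start inflammatory signalling in macrophages, dendritic cells and B cells. Accessible chromatin at 10 mouse genes of this system was described in splenic B cells: the receptors Tlr1, Tlr2, Tlr3, Tlr4, Tlr6 and Tlr9, the receptor-like protein Cd180 with its partner Ly86, the trafficking factor Unc93b1 and the adaptor Myd88. The genes were taken by name, with earlier results of these data known, out of 22350 protein-coding genes on chromosomes 1 to 19 and X. A region was assigned to a gene when it overlapped the gene body, or the 50 kb on either side, in the GENCODE M1 annotation of mm9. These windows held 86 of the 47474 DNase I hypersensitive sites (DHS) called on those chromosomes. A DHS is a stretch of DNA that the enzyme DNase I cuts readily because it is not packed tightly in nucleosomes. The list does not hold the whole receptor family, since 6 other Toll-like receptors are left out of it and are described separately.

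The cells came from spleens of mice labelled Trp53+/+ and C57/Bl6, 8 weeks old and mock treated, and were enriched with magnetic beads against B220. The series comprises 2 samples, a DNaseI library and an input library, both from such cells. The values are the peak list of the DNaseI library, and the input library was not analysed on its own. There are no replicates, and the labels do not say how many mice gave the cells, so each value describes a single library and no test between groups was possible.

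Receptors on the cell surface bind lipids and lipoproteins of microbes. TLR2 pairs with TLR1 or TLR6 for lipopeptides, and TLR4 senses lipopolysaccharide. TLR3 and TLR9 bind double-stranded RNA and unmethylated CpG DNA in endosomes, to which UNC93B1 carries them. CD180, also called RP105, is a homologue of TLR4 on B cells that is held at the surface by MD-1, the product of Ly86, and MYD88 is the adaptor of nearly all these receptors. In mouse B cells, ligands of TLR4 and TLR9 are classic mitogens.

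DNA of some of these DHS is printed here to show what the open regions look like, read from mm9 on the strand of the gene, 5′ to 3′. The first 5 stretches are the 100 bases just upstream of an annotated transcription start site (TSS), and the other 5 surround a matching word inside a DHS. Each lies wholly inside a DHS and outside annotated exons, and the Myd88 stretch is also intronic in a longer transcript of that gene. Capitals mark words that were searched on both strands, except for the short E2A word (CANCTG), which is common and is left in lower case in the Tlr9, Tlr2, Tlr4 and Unc93b1 stretches. The marked words are an octamer (ATGCAAAT), the overlapping NF-kB words (GGGANTTCC) on both strands at Tlr2, IRF words (GAAANNGAA), a RUNX word (TGTGGTTT), an EBF1 word (TCCCNNGGG) that overlaps an NF-kB word at Unc93b1, a PU.1 word (GAGGAAGT), and a p53 element at Tlr6. A word on the opposite strand reads as its reverse complement here.
Tlr9, chr9:106124829-106124928, plus strand, start of the gene with the second highest promoter score: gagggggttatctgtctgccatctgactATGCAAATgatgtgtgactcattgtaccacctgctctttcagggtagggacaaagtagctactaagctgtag
Tlr2, chr3:83645690-83645789, minus strand, palindromic NF-kB match at the start site: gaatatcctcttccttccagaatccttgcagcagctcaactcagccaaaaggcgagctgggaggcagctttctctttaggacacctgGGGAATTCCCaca
Tlr3, chr8:46495963-46496062, minus strand, gene with the lowest top promoter score, no word: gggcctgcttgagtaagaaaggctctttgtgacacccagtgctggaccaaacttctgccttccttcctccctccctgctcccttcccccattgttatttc
Tlr4, chr4:66488518-66488617, plus strand, the DHS that stands alone in its window, no word but E2A: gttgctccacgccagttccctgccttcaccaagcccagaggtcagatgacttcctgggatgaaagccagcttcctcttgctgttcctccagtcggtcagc
Myd88, chr9:119249160-119249259, minus strand, upstream of an internal start site of the gene: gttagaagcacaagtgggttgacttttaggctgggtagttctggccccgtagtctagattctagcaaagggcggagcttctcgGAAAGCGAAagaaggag
Tlr6, chr5:65352367-65352486, minus strand, p53 element followed by a RUNX word: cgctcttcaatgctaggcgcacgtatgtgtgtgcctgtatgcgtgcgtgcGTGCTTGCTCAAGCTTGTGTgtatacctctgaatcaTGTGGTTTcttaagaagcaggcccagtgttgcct
Cd180, chr13:103479996-103480206, plus strand, the strongest DHS of the gene with 2 IRF words: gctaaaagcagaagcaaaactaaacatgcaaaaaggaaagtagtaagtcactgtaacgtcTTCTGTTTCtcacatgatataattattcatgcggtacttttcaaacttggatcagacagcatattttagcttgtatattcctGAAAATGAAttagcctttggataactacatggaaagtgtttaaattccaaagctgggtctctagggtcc
Unc93b1, chr19:3931126-3931234, plus strand, EBF1 word running into an NF-kB word: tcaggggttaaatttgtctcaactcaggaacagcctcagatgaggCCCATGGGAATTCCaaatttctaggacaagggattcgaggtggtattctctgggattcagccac
Ly86, chr13:37448545-37448652, plus strand, PU.1 word in an intron DHS: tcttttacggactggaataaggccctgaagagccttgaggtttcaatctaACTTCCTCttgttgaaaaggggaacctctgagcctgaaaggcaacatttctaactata
Tlr1, chr5:65276327-65276434, minus strand, octamer in a distal DHS: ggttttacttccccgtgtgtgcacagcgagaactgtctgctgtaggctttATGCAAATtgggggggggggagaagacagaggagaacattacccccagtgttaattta

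All 10 genes had a DHS at the promoter, defined as 5 kb upstream to 2 kb downstream of any annotated start site. Over all protein-coding genes this share was 57%. All 10 also had one within 1 kb of a start site, beside 53.7% of all genes, and one with a score at or above the median of the list, beside 50.3%. A DHS overlapped the gene body in all 10, beside 57.9%. The exact 95% interval for 10 of 10 runs from 69.2% to 100% and covers counting error only. A start site itself lay inside a DHS in 10 of 10 genes, against 46.6% of all genes. Promoters rich in CpG dinucleotides carry a DHS far more often than others, with 85.5% of CpG-rich and 39.2% of other promoters doing so. A promoter counted as CpG-rich when the 1000 bp around its start reached both 55% GC and 0.6 for the ratio of observed to expected CpG. Of the 10 genes, 9 had a promoter that was not CpG-rich, so the lower share is the nearer comparison for them. These counts describe a list that was drawn up with earlier results known and that leaves out receptors with a weak promoter DHS or none, and they are not a test of the list.

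The score that the authors' peak caller gave each DHS was used to order the regions. Its scale is not stated, and its median over the whole list was 32.65. The highest promoter score of a gene was 241.03 at Unc93b1, 238.52 at Tlr9, 189.04 at Tlr6, 164.21 at Cd180, 151.82 at Myd88 and 138.99 at Ly86. It was 104.74 at Tlr4, 74.68 at Tlr1, 69.62 at Tlr2 and 38.36 at Tlr3. Of the genes of the endosomal receptors, Tlr9 thus stood near the top of this order and Tlr3 at the bottom. The median over the 10 genes was 145.4, beside 101.22 over the 12747 protein-coding genes with a promoter DHS and 81.39 over those of them whose promoter was not CpG-rich. A promoter score of at least 100 was reached by 7 of the 10 genes, against 29% of all genes and 15.2% of the genes without a CpG-rich promoter. With no replicate, neighbours in the order, such as Unc93b1 and Tlr9, cannot be told apart.

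**Figure D1:**
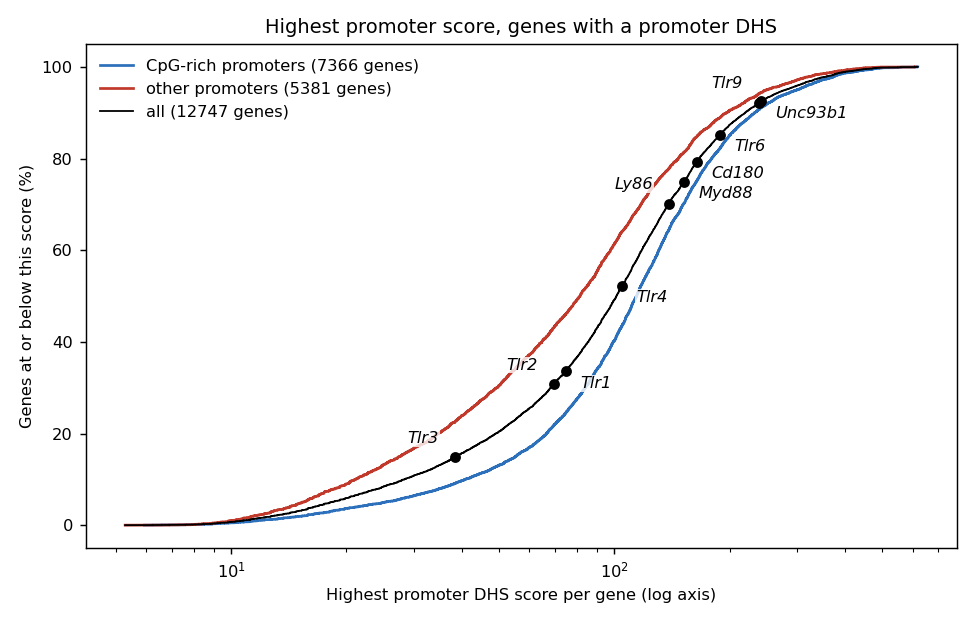
Cumulative share of genes (y axis, %) at or below a given highest promoter score (x axis, log scale) for the 12747 protein-coding genes with a promoter DHS, in all and by CpG class, with the 10 genes as points on the curve of all genes. Tlr3 lies at 38.36 near the lower end, and Tlr9 and Unc93b1 lie at 238.52 and 241.03, at the percentiles 92.2 and 92.5.

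Tlr9 (ENSMUSG00000045322.9, chr9:106124929-106129207, plus strand) encodes the sensor of CpG DNA. Its start lay in a DHS of 3172 bp at chr9:106123050-106126221 with the score 238.52, the percentile 98.0 among all DHS and 92.2 among genes with a promoter DHS. A weak DHS of score 10.84 lay 2.67 kb upstream, and another of score 17.55 lay over an exon of the gene, 3.66 kb downstream of the start. Past the 3′ end of the gene, an intergenic DHS at chr9:106132025-106133640 had the score 103.11, and the nearest start of a protein-coding gene was that of Alas1. The window held 13 DHS, and 6 of them were at promoters of the neighbours Ppm1m, Twf2 and Alas1, with 203.92 at Twf2 as the highest. Genes lie close together here, and the window count is not a count of sites of Tlr9.

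Unc93b1 (ENSMUSG00000036908.9, chr19:3935186-3949340, plus strand) encodes the escort of the endosomal receptors. It had 4 promoter DHS, the most of the 10 genes, and 2 of its 3 annotated start sites lay inside a DHS. The strongest, chr19:3935216-3937206, began just inside the gene and scored 241.03. At the start of a shorter transcript, chr19:3942399-3944089 scored 85.39. The remaining promoter DHS scored 34.97 and 24.37 and were shared with the promoter window of Aldh3b1, a neighbouring aldehyde dehydrogenase gene. A further DHS in the gene body at chr19:3946011-3947288 scored 66.84. Of the 12 DHS in the window, 6 belonged to promoters of Chka, Tcirg1, Ndufs8 and Aldh3b1, with 145.58 at Ndufs8.

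Tlr3 (ENSMUSG00000031639.5, chr8:46481019-46495962, minus strand), the gene of the endosomal receptor for double-stranded RNA, had a weaker promoter and fewer DHS than Tlr9 and Unc93b1. Its start lay in a DHS at chr8:46495089-46496304 that scored 38.36, the percentile 14.8 among genes with a promoter DHS. A second promoter DHS 4.37 kb upstream scored 31.81, so that both were close to the median score of all DHS. The only other DHS of the window scored 24.05 and lay 43.9 kb upstream. At 2.61 DHS per 100 kb the window was below the median of all genes, 3.39 per 100 kb.

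**Figure D2:**
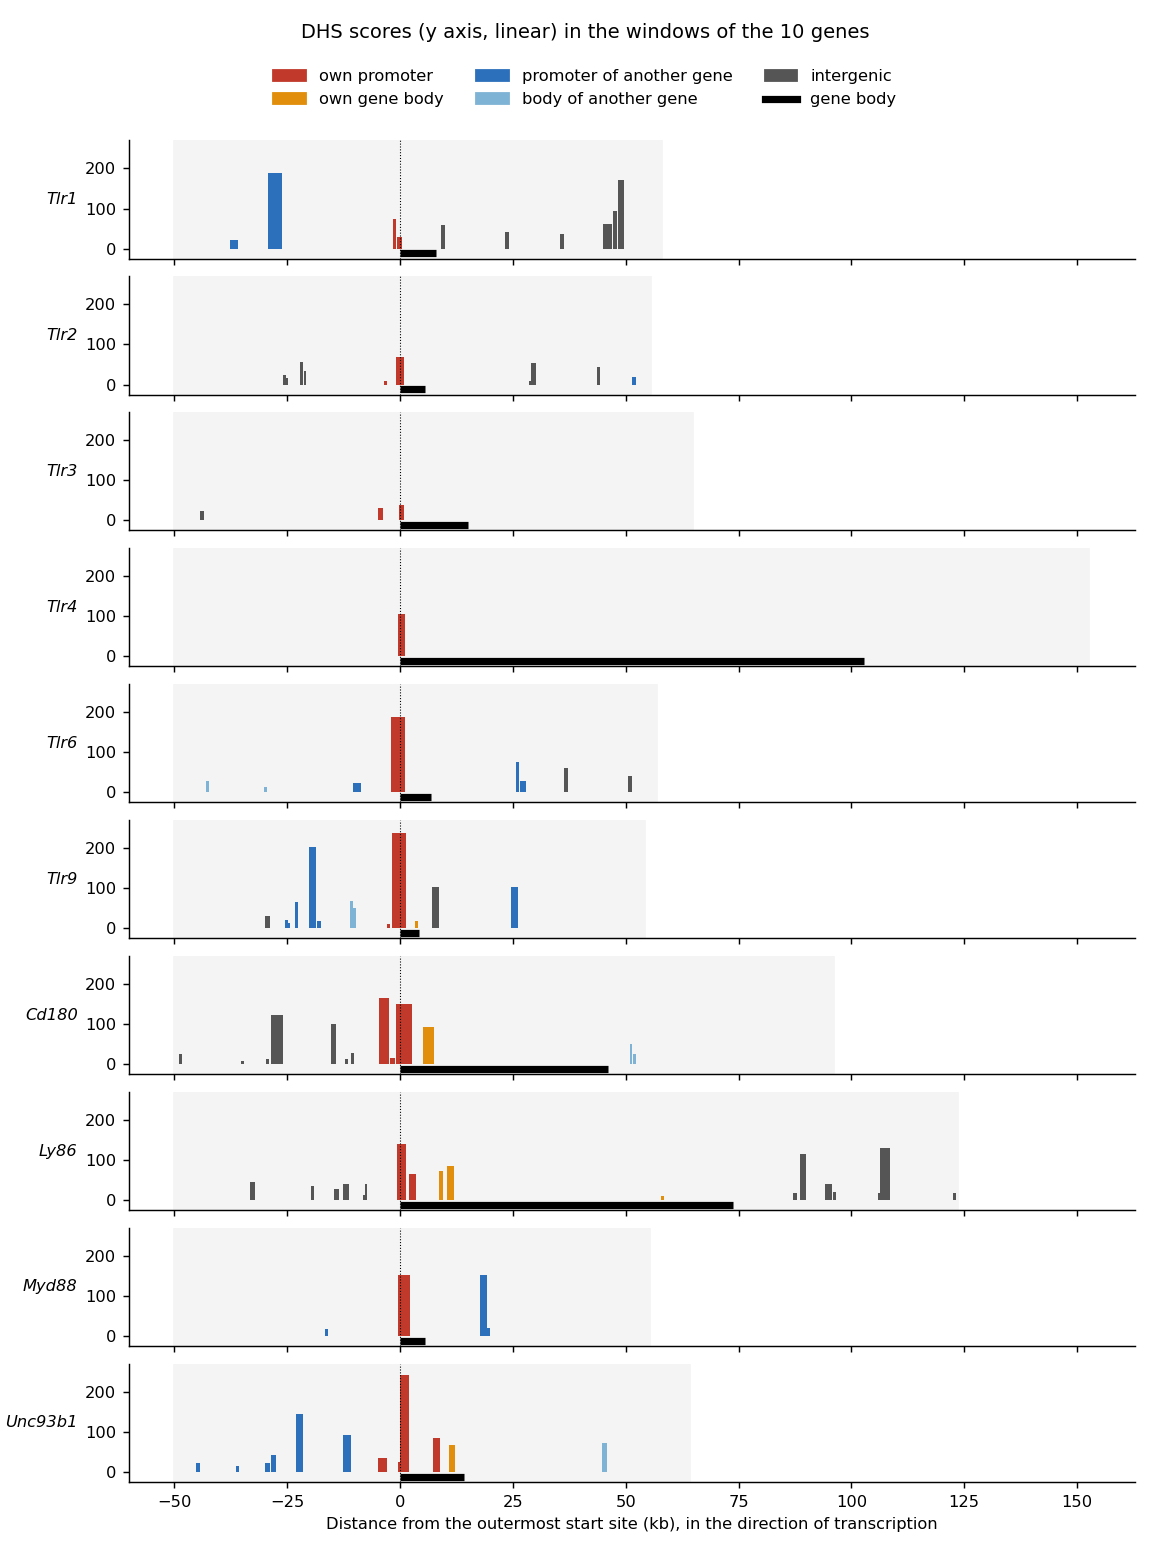
DHS in the windows of the 10 genes, placed by distance from the outermost start site in the direction of transcription (x axis, kb) with the score as bar height (y axis, linear), coloured by where each DHS lies, and with the gene body as a black line. Tlr4 shows a single DHS at its start, Ly86 shows 18, and the tallest bar stands at the gene's own promoter in 8 of 10 windows.

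Among the surface receptors, Tlr4 (ENSMUSG00000039005.7, chr4:66488618-66591318, plus strand) had the emptiest window. A single DHS at chr4:66488169-66489721 covered all 4 annotated start sites with the score 104.74, close to the median of genes with a promoter DHS. No other DHS was called in the gene body of 102.7 kb or in the 50 kb on either side, which gave 0.493 DHS per 100 kb. This was the percentile 24.0 of all genes. A stretch without a DHS is one in which no peak was called, and with the depth of the library unknown it cannot be read as closed chromatin. Even 100 kb on either side held only 2 DHS.

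Tlr1 (ENSMUSG00000044827.6, chr5:65316050-65324000) and Tlr6 (ENSMUSG00000051498.4, chr5:65344345-65351287), the alternative partners of TLR2, lie side by side on the minus strand, and their windows shared 6 DHS. At Tlr6 a single promoter DHS of 3165 bp, chr5:65350113-65353277, scored 189.04, the percentile 96.0 among all DHS. Tlr1 had 2 promoter DHS separated by 88 bp. The one over its start, chr5:65323462-65324769, scored 27.73, and the one just upstream, chr5:65324858-65325628, scored 74.68. The site at the start was thus the weaker of the pair, and both were weaker than the Tlr6 promoter 27.7 kb upstream of Tlr1. Of the 31-base words of the gene body, 13.5% at Tlr1 and 8.72% at Tlr6 occur more than once in the assembly, and the other 8 genes ranged from 0% at Tlr9 to 12.2% at Unc93b1. Over the 86 DHS the median of that share was 0.0242%, and 8 DHS exceeded 10%. How reads from such words were treated is not stated.

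A group of 3 DHS downstream of Tlr1 held the highest score among the 49 DHS of the 10 windows that lay away from promoters. The 3 regions, chr5:65274469-65275775, chr5:65275991-65276910 and chr5:65277074-65279007, scored 170.44, 93.94 and 60.79, with gaps of 215 and 163 bp between them. They lay 46.0 to 48.9 kb downstream of the Tlr1 start in intergenic DNA. Tlr1 had the nearest start of any protein-coding gene, which says nothing of which gene they act on. The middle region holds the octamer printed above.

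Tlr2 (ENSMUSG00000027995.9, chr3:83640195-83645689, minus strand), which recognises bacterial lipoproteins, had a DHS of 1781 bp over its start, chr3:83644763-83646543, with the score 69.62, the percentile 30.8 among genes with a promoter DHS. The NF-kB palindrome printed above lies just upstream of its start. A second promoter DHS was weak at 9.36. In the rest of the window, 4 DHS lay between 21.1 and 25.7 kb upstream, with scores of 34.86, 55.34, 15.34 and 24.33. The downstream side had intergenic DHS of 8.47 at 28.6 kb, 53.54 at 29.6 kb and 44.19 at 44.0 kb, the last nearest to Sfrp2, a gene of a secreted Wnt modulator. No distal DHS of this window exceeded the promoter.

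Cd180 (ENSMUSG00000021624.3, chr13:103483638-103529709, plus strand) showed an array of DHS that ran from well upstream into the first part of the gene. Over its 5 annotated start sites lay a DHS of 3407 bp, chr13:103482794-103486200, with the score 150.16. The strongest DHS was not this one but chr13:103478974-103481284, 3.51 kb upstream, with the score 164.21, and a weak DHS of 15.76 separated the pair. An intron DHS at chr13:103488650-103491121 scored 92.49. Farther upstream, chr13:103468228-103469507 scored 99.67 at 14.8 kb and chr13:103455108-103457667 scored 122.62 at 27.3 kb. The other DHS upstream were weak, between 7.32 and 27.5, and 2 DHS in an intron of Mast4 beyond the 3′ end scored 49.52 and 24.43. No promoter of another gene contributed to the 13 DHS of the window.

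Ly86 (ENSMUSG00000021423.5, chr13:37437214-37510905, plus strand), the gene of the MD-1 partner of CD180, had 18 DHS, the most of the 10 windows. Its window of 173.7 kb was at the percentile 96.4 of all genes by count and 88.8 by DHS per 100 kb. No DHS of its window was at another gene. Its start lay in chr13:37436508-37438631 with the score 138.99, followed in an intron by chr13:37439169-37440714 with 64.33. Further intron DHS scored 73.51 at 9.09 kb, 84.01 at 11.2 kb and 10.18 at 58.2 kb from the start. Past the 3′ end, chr13:37525727-37527117 scored 115.25 and chr13:37543634-37545726 scored 129.91, the latter 107.5 kb from the start. Cd180 and Ly86 thus both had a start above 100, further intron DHS of up to 92.49 and 84.01, and intergenic DHS above 100. Tlr9 also had a start and an intergenic DHS above 100. Unc93b1 had a start above 100 and further intron DHS of 85.39 and 66.84. The layout was not tested against other pairs of genes.

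Myd88 (ENSMUSG00000032508.7, chr9:119245052-119250529, minus strand) encodes the adaptor that passes the signal of nearly all the receptors to the IRAK kinases. One DHS of 2657 bp, chr9:119248360-119251016, covered all 4 of its start sites with the score 151.82. It also lay in the promoter window of Acaa1a, a gene of peroxisomal fatty acid oxidation, so that the score cannot be assigned to Myd88 alone. The 3 other DHS were at promoters of Oxsr1 and Xylb, and that of Oxsr1 reached 152.1, about the same as Myd88. No DHS of the window lay away from promoters, as was also the case at Tlr4.

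Myd88 differed from the other 9 genes in the class of its promoter by CpG content. In the 1000 bp around the start, its GC content was 63.3% and its observed to expected CpG ratio was 0.751. It was the only one of the 10 genes above both limits for a CpG-rich promoter, a class that holds 38.5% of all genes. Tlr6 exceeded the ratio at 0.716 but had a GC content of only 39.6%, the lowest of the 10. Tlr9, whose product binds unmethylated CpG, had the lowest ratio at 0.168, with a GC content of 54.1%. The ratios of Cd180, Tlr4, Tlr3, Tlr1, Unc93b1, Tlr2 and Ly86 lay between 0.206 and 0.449.

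**Figure D3:**
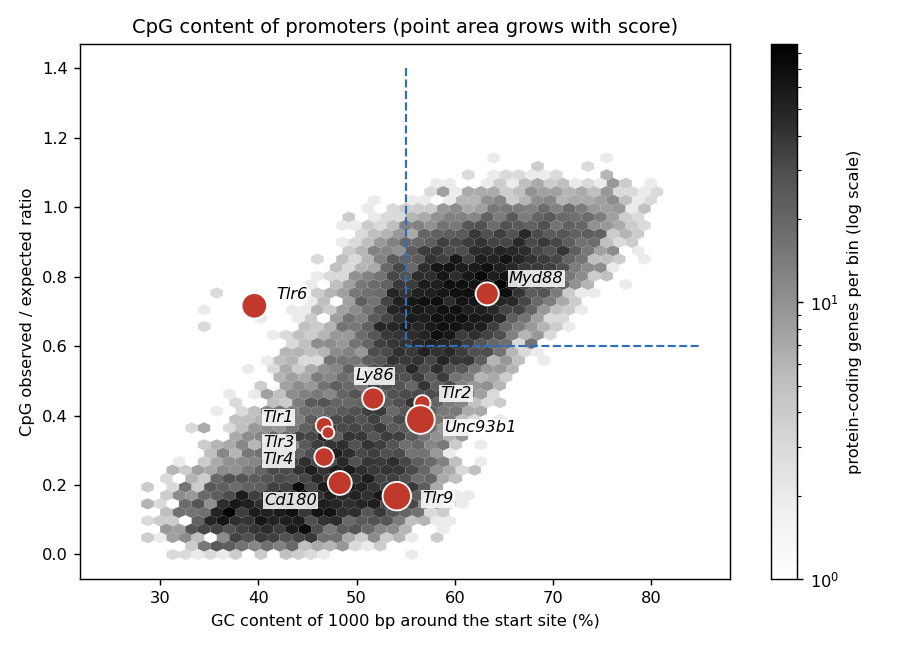
GC content (x axis, %) and observed to expected CpG ratio (y axis) in the 1000 bp around the start site, for all protein-coding genes as shaded bins and for the 10 genes as points whose area grows with the highest promoter score. Myd88 alone lies inside the dashed limits of the CpG-rich class, Tlr6 lies far to the left at 39.6% GC, and Tlr9 has a large point at the low ratio of 0.168.

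Taken over the 86 DHS, 20 lay at the promoter of a gene of the list, a share of 23.3% (Wilson 95% interval 15.6 to 33.2%). This share is set by the width of the windows, and it was 58.8% with 10 kb on either side. A further 6 lay in the bodies of these genes away from promoters, 17 at promoters of other genes and 7 in the bodies of other genes, and 36 were intergenic (41.9%, interval 32.0 to 52.4%). DHS at the promoters of the list had a median score of 72.15 (range 9.36 to 241.03) and those in the gene bodies 70.175. Those at promoters of other genes had 22.08 (range 14.19 to 203.92). No median over all promoter DHS is given beside these, and the list was drawn up with earlier results known. At any promoter lay 43.0% of the 86 (interval 33.1 to 53.6%), beside 47.5% of all DHS, a difference within the interval. The 49 DHS away from promoters had a median score of 39.53, beside 24.33 for all such DHS. For 39 of these 49 the nearest protein-coding start was that of a gene of the list.

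Scores of at least 100 were found for 17 of the 86 DHS, which is 19.8% (Wilson interval 12.7 to 29.4%), beside 15.6% of all DHS, a share inside the interval. Of the 17, 8 were at promoters of the list, 5 were intergenic and the rest were at promoters of other genes. The intergenic ones were the site downstream of Tlr1 and single or paired sites near Tlr9, Cd180 and Ly86. In 8 of 10 genes the strongest DHS of the window was at the gene's own promoter, beside 25.9% of all protein-coding genes and 45.4% of those with a promoter DHS. The exceptions were Tlr1, where the Tlr6 promoter was stronger, and Myd88, where the Oxsr1 promoter was.

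The windows of the 10 genes held a median of 10 DHS, beside 5 for all protein-coding genes. With 10 kb on either side in place of 50 kb, the medians were 2.5 and 2. Counting only DHS with a score of at least the median gave 5.5 and 2. Leaving out DHS at promoters of other genes gave 6.5 for the 10 genes. Per 100 kb of window the medians were 9.08 and 3.39, and 8 of the 10 genes exceeded the median of all genes, the exceptions being Tlr3 and Tlr4. The densest windows were those of Tlr9 at 12.5, Unc93b1 at 10.5 and Ly86 at 10.4 DHS per 100 kb. Without the DHS at promoters of other genes the counts were 18 for Ly86, 13 for Cd180, 9 for Tlr2, 8 for Tlr1, 7 for Tlr9, 6 for Unc93b1, 5 for Tlr6, 3 for Tlr3 and 1 each for Tlr4 and Myd88. Ly86, Cd180, Tlr3 and Tlr4 had the same counts with and without neighbouring promoters, whereas Tlr9 had 13 and Unc93b1 12 with them. A count of 2 or more promoter DHS was reached by 7 of 10 genes, beside 29.6% of all genes.

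Short words read in the central 300 bp of each DHS, so that all regions had equal length, gave a mixed picture. The NF-kB word was in 5 of the 86 DHS (5.81%, interval 2.51 to 12.9%), beside 713 of all 47474 DHS, a share below the lower bound. These were the promoter DHS and a distal DHS of Tlr2, the Unc93b1 DHS printed above, the DHS at Ndufs8 and a weak DHS of score 7.32 upstream of Cd180. The IRF word was in 11 (12.8%, interval 7.29 to 21.5%), beside 9.26%, and the RUNX word in 4 (4.65%), beside 2.51%. For the PU.1 word the count was 4, beside 3.61% of all DHS, and for the octamer 2, beside 1.64%. The composite ETS-IRF word (GGAANNGAA) was in 5 (5.81%), beside 9.32%. The EBF1 word was in 4 (4.65%), beside 6.62%, the CTCF word (AGNNGGCGC) in 3 (3.49%), beside 6.04%, and the E2A word in 48 (55.8%), beside 56.7%. An ETS word (CCGGAAGT) was found in none of the 86, beside 1.68%, and the interval for 0 of 86 reaches 4.28%. Apart from the NF-kB word, the share in all DHS lay inside the interval of the 86, and 11 words were compared in this way. The 37 DHS at any promoter include 17 at promoters of other genes. There the NF-kB and RUNX words were each in 3 (8.11%, interval 2.80 to 21.3%), beside 1.59% and 1.62% of all promoter DHS. Of the 20 at promoters of the list, each of the 2 words was in 2 (10%). Over whole peaks, which differ in width, the IRF word was in 16 of the 37 (43.2%, interval 28.7 to 59.1%), beside 26.4%. The NF-kB word was in 7 (18.9%, interval 9.48 to 34.2%), beside 5.28%. In the other promoter comparisons the share of all promoter DHS lay inside the interval. All of them come on top of the 11 comparisons above. IRF and ETS-IRF words can overlap each other, as can the PU.1 and ETS-IRF words. A match is only a run of letters, not a bound site.

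The p53 element, a pair of adjacent decamers with at most 2 mismatches and none at the core C and G, was searched because p53 is the subject of the series. It was absent from the central 300 bp of the 86 DHS and present in 0.329% of all DHS. Read over the whole width of the peaks, it occurred in 1 of the 86, beside 1.02% of all DHS. This was the stretch in the Tlr6 promoter DHS at chr5:65352417-65352436, 1139 bp upstream of the start, with 2 mismatches. A stretch rich in G and T precedes it in the sequence printed above.

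Other genes of the receptor system were compared by the same promoter rule. Of the 6 Toll-like receptors left out of the list, 3 had a promoter DHS, all with low scores of 45.87 at Tlr7, 24.07 at Tlr12 and 22.19 at Tlr13, and none was called at Tlr5, Tlr8 and Tlr11. At scores of at least the median only 1 of the 6 had one, Tlr12 and Tlr13 being lost, and Tlr13 also had none within 1 kb of its start. The whole family of 12 receptors thus had 9 with a promoter DHS, beside 57% of all genes and 39.2% of those without a CpG-rich promoter, to which all 12 belong. The median score of the 9 was 69.62. TLR7 senses single-stranded RNA in endosomes. Tlr7, Tlr8 and Tlr13 are on chromosome X, where 36.9% of protein-coding genes had a promoter DHS. A promoter DHS in every gene thus holds for the 10 genes as listed, whereas 3 of the 12 receptors had none.

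Coreceptors and trafficking factors had a promoter DHS in 12 of 13 genes with a median score of 125.9, the exception being Lbp, the lipopolysaccharide-binding protein of serum. All 5 other adaptors, such as Tirap and Ticam1, had one, with a median of 112.49. All 16 kinases and ubiquitin ligases did so too, with a median of 85.325, below the 101.22 of all genes with a promoter DHS, and Irak2 as their highest at 369.7. The 6 transcription factors had a median of 136.26 and were led by the NF-kB subunit gene Rel at 418.25. Negative regulators had 9 of 10, all but Il1rl1, with a median of 160.69 and Tnfaip3, the ubiquitin-editing A20, at 327.76. Together 48 of these 50 genes had a promoter DHS (exact interval 86.3 to 99.5%), beside 57% of all genes, and 51 of 56 with the other Toll-like receptors counted in. At scores of at least the median of all DHS, Cd36, Tab2 and Sigirr were lost from the 48. Ikbke was lost when only the start sites of coding transcripts counted. Of the 50 promoters, 31 were CpG-rich, a class in which 85.5% of genes had a promoter DHS, in contrast to 1 of the 10. These lists too were drawn up with earlier results known, so that the counts are not a test of them.

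The labelled cell type was checked against markers, none of which had a CpG-rich promoter except for 3 of the dendritic cell list, so that the share of 39.2% for such genes is the background. All 12 B cell markers, among them Pax5 and Ms4a1, had a promoter DHS, with a median score of 142.685, or 11 of 12 when the centre of the DHS had to lie in the promoter window, where Cd74 was lost. For T cells it was 3 of 12, below that background but with an exact interval of 5.49 to 57.2% that includes it, Cd5, Lck and Lat at 97.67, 92.81 and 24.5, and none was called at the genes of the CD3 chains. For monocytes and macrophages, which also express Toll-like receptors, it was 4 of 12 (interval 9.92 to 65.1%), Cd68 at 142.32, Mpeg1 at 108.51, Emr1 at 41.05 and Itgam at 18.16, while none was called at Csf1r, Lyz2 or Marco. Cd68 had none within 1 kb of its start. Of 8 neutrophil markers Elane had one at 42.54, which was also farther than 1 kb from its start, and of 8 dendritic cell markers Flt3 and Zbtb46 had one at 46.83 and 34.47. Plasmacytoid dendritic cells can carry B220, and none was called at their marker Siglech. The share of any DHS at the 10 genes that comes from cells other than B cells was not tested.

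**Figure D4:**
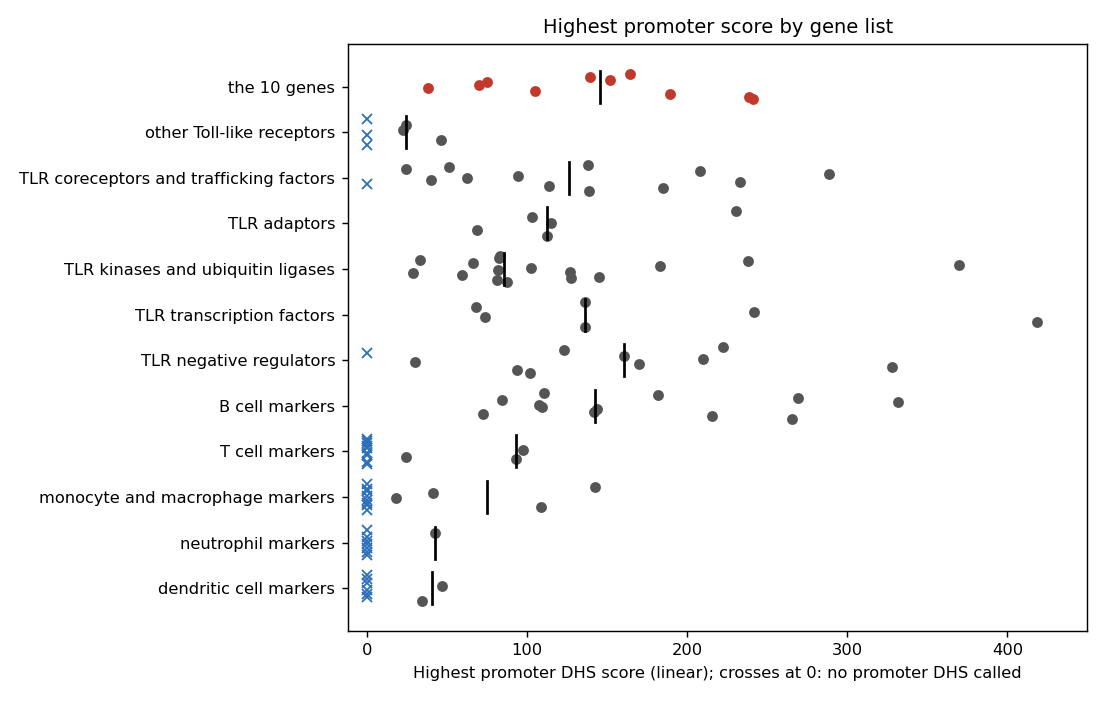
Highest promoter score (x axis, linear) of each gene in 12 lists, with a cross at 0 for a gene at whose promoter no DHS was called and a vertical line at the median of the genes with one. The 10 genes run from 38.36 to 241.03. They have no cross, like the adaptors, the kinases and ubiquitin ligases, the transcription factors and the B cell markers. The other Toll-like receptors, left out of the 10 genes, have 3 crosses and stay at or below 45.87.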

How the data were processed

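DNase I digested DNA of B220-selected splenic B cells was sequenced in 1 library, beside 1 input library. The submitters' processing notes name BWA 0.6.2, SAMtools and mm9. The authors deposited 1 peak list of 47542 DHS named as by MACS, each with a score. What that deposited score measures, the caller's settings and whether the input was its control are not given in the sources used here. The study states MACS settings for its ChIP-seq libraries only, and they are not taken to apply to this list. The list holds no counts, so depth is unknown, and intervals cover counting error only. The columns of the file that could not be mapped to a sample numbered 0.

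Peaks on chromosomes 1 to 19 and X were intersected, by at least 1 bp, with GENCODE M1 genes and 95414 start sites in Python 3.11.15 (pandas 2.3.3, pysam 0.24.0, scipy 1.17.1). Shares of DHS have Wilson and shares of gene lists exact intervals at 95%. Percentiles rank a gene among all protein-coding genes or among those with a promoter DHS. Distances run from the peak centre to the nearest start site of the gene. The scripts were tested on simulated data. The 10 genes and the other lists were chosen with earlier results of these data known. The text names all 10 genes, their promoter and gene body DHS and the strongest DHS of each window; other DHS, and other genes with the highest score of a list, were named after their values were seen. Of other lists it names genes without a promoter DHS, or with one, whichever are fewer than 6; a few further genes were picked as examples after their values were seen. Alternatives were a score of at least the median, merging of peaks closer than 500 bp, other windows, the peak centre, coding transcripts only and words read over whole peaks.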

Additional observations from a re-analysis of the deposited data

How the results depend on the processing

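With 1 library there was no replicate to leave out. No paired analysis was possible because each group holds 1 sample. Of 67 alternative values over 23 results, 54 were counted as the same, 13 as moved and 0 as changed in direction. Shares and medians counted as the same inside the interval of the reported value, which can be wide. For counts the limit was a ratio of 1.5. Word shares were not checked for a change of direction against all DHS. Over whole peaks, the E2A word went from below that share (55.8% beside 56.7%) to above it (88.4% beside 84.0%). The p53 element went from 0% beside 0.329% to 1.16% beside 1.02%. All 10 genes had a promoter DHS in every setting tried, beside 50.3 to 57% of all genes. At scores of at least the median, 1 of the 6 other Toll-like receptors had a promoter DHS in place of 3, Tlr12 and Tlr13 being lost, and the median DHS width in the 10 windows was 1391 bp in place of 863. With 10 kb on either side, a window held a median of 2.5 DHS, beside 2 for all genes, with a median width of 1293 bp, and the share at promoters of the list was 58.8%, as distal DHS drop out by construction. With 100 kb it held 15, beside 8. Words read over whole peaks, which are longer, were found in 13.95% of the 86 DHS for PU.1 (8.90% of all DHS), 24.4% for ETS-IRF (24.7%), 32.6% for IRF (24.6%), 15.1% for EBF1 (17.7%), 8.14% for the octamer (4.70%), 88.4% for E2A (84.0%), 11.6% for CTCF (13.3%), 12.8% for NF-kB (4.31%), 10.5% for RUNX (7.15%) and 2.33% for ETS (3.83%). For Cd180, DHS within 1 kb of a start gave 150.16 as the highest promoter score. Unknown depth limits any statement on regions without a DHS, such as most of the Tlr4 window and the promoters of Tlr5, Tlr8 and Tlr11.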
